A study of Mus musculus with 2 samples.

Results

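The mitochondrial ribosome and the protein translocases of the mitochondrial membranes were examined as 94 of the 13506 genes measured on both arrays. They were chosen by name, from current mouse symbols beginning Mrpl, Mrps, Timm (or Tim) or Tomm followed by a number. The name rule used no measured ratio, but the choice was made with earlier results of these data known. There were 49 Mrpl genes, named for the large subunit of the mitochondrial ribosome, and 28 Mrps genes, named for the small subunit. A further 9 Timm genes code for translocases of the inner membrane and their chaperones, and 8 Tomm genes for the import machinery of the outer membrane. The name rule found 95 genes on the platform. The remaining one, Tomm20l, a paralogue of the receptor gene Tomm20, had no value on either array. Of the 94, 3 genes had more than 1 probe (Timm8a1, Tomm40 and Mrps30), and 6 were updated from an older symbol (Timm21, Timm29, Mrpl42, Mrpl57, Mrpl58 and Tomm6).

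Liver metastases and primary tumours were compared in Colon26, a mouse colon carcinoma line injected beneath the rectal mucosa of Balb/c mice. Each of 2 arrays carried RNA of 1 liver metastasis labelled with Cy3 and 1 primary tumour labelled with Cy5, from independently grown and harvested tissue. No genetic change or drug was named for either tissue, and nothing in the labels gives the age of the mice, the interval between injection and harvest, or how far host tissue was removed. Colon26 is a single cell line, so the tissues stand for 1 tumour origin. Each value is a log ratio of the channels, taken as log2. Which channel is the numerator is not given in the sources used here, so values are reported as positive or negative and neither side is assigned to a tissue. The dyes were not swapped, so a preference of a probe for 1 dye cannot be told apart from a difference between the tissues. The values hold no level of a gene in either tissue, and in tissue RNA fewer cells of a type and less RNA per cell cannot be told apart. Of 13 hepatocyte marker genes looked up for host tissue, 11 were measured, with means from -0.95 to 0.80 and a median of -0.03. Both arrays were positive for 2 of those 11 (18.2%, against 33.9% of all genes) and negative for 5 (45.5%, against 38.2%). Of 7 colon epithelium markers, 5 were measured, with a median of -0.36, 1 positive and 3 negative on both arrays. Limma called 0 of these 16, where 2.90% of all genes were called. An unadjusted p under 0.05 was met by 6 (37.5%, against 27.5% of all genes). Their part in the values below was not tested.

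Mitochondria translate only the few proteins encoded by their own genome, all of them membrane subunits of the respiratory chain and ATP synthase, on a ribosome whose proteins come entirely from nuclear genes. Those ribosomal proteins, like most mitochondrial proteins, are made in the cytosol and threaded through the translocase of the outer membrane and then through translocases of the inner membrane. By convention, Mrpl names up to 36 and Mrps names up to 21 follow the numbering of bacterial ribosomal proteins. Higher numbers mostly mark proteins with no counterpart in the bacterial ribosome, with exceptions, so number and ancestry are not the same thing. In liver, and in most tumours, these genes are broadly expressed and are counted among housekeeping functions.

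As a set, the genes lay close to 0 and on no common side. The 94 mean ratios had a median of 0.02 (array 1 alone -0.01, array 2 alone 0.07). Over all 13506 genes it was -0.02 (array 1 alone -0.02, array 2 alone -0.03). On both arrays 36 genes were positive (38.3%, against 33.9% of all genes) and 31 were negative (33.0%, against 38.2% of all genes). The other 27, 28.7%, changed sign between the arrays or, for Mrpl28, were at exactly 0 on array 1, and the same held for 27.8% of all genes. These shares lie near those of the whole table, and turning the signs of 2 arrays cannot give a p below 0.5, so no test of a shift was made.

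**Figure D1:**
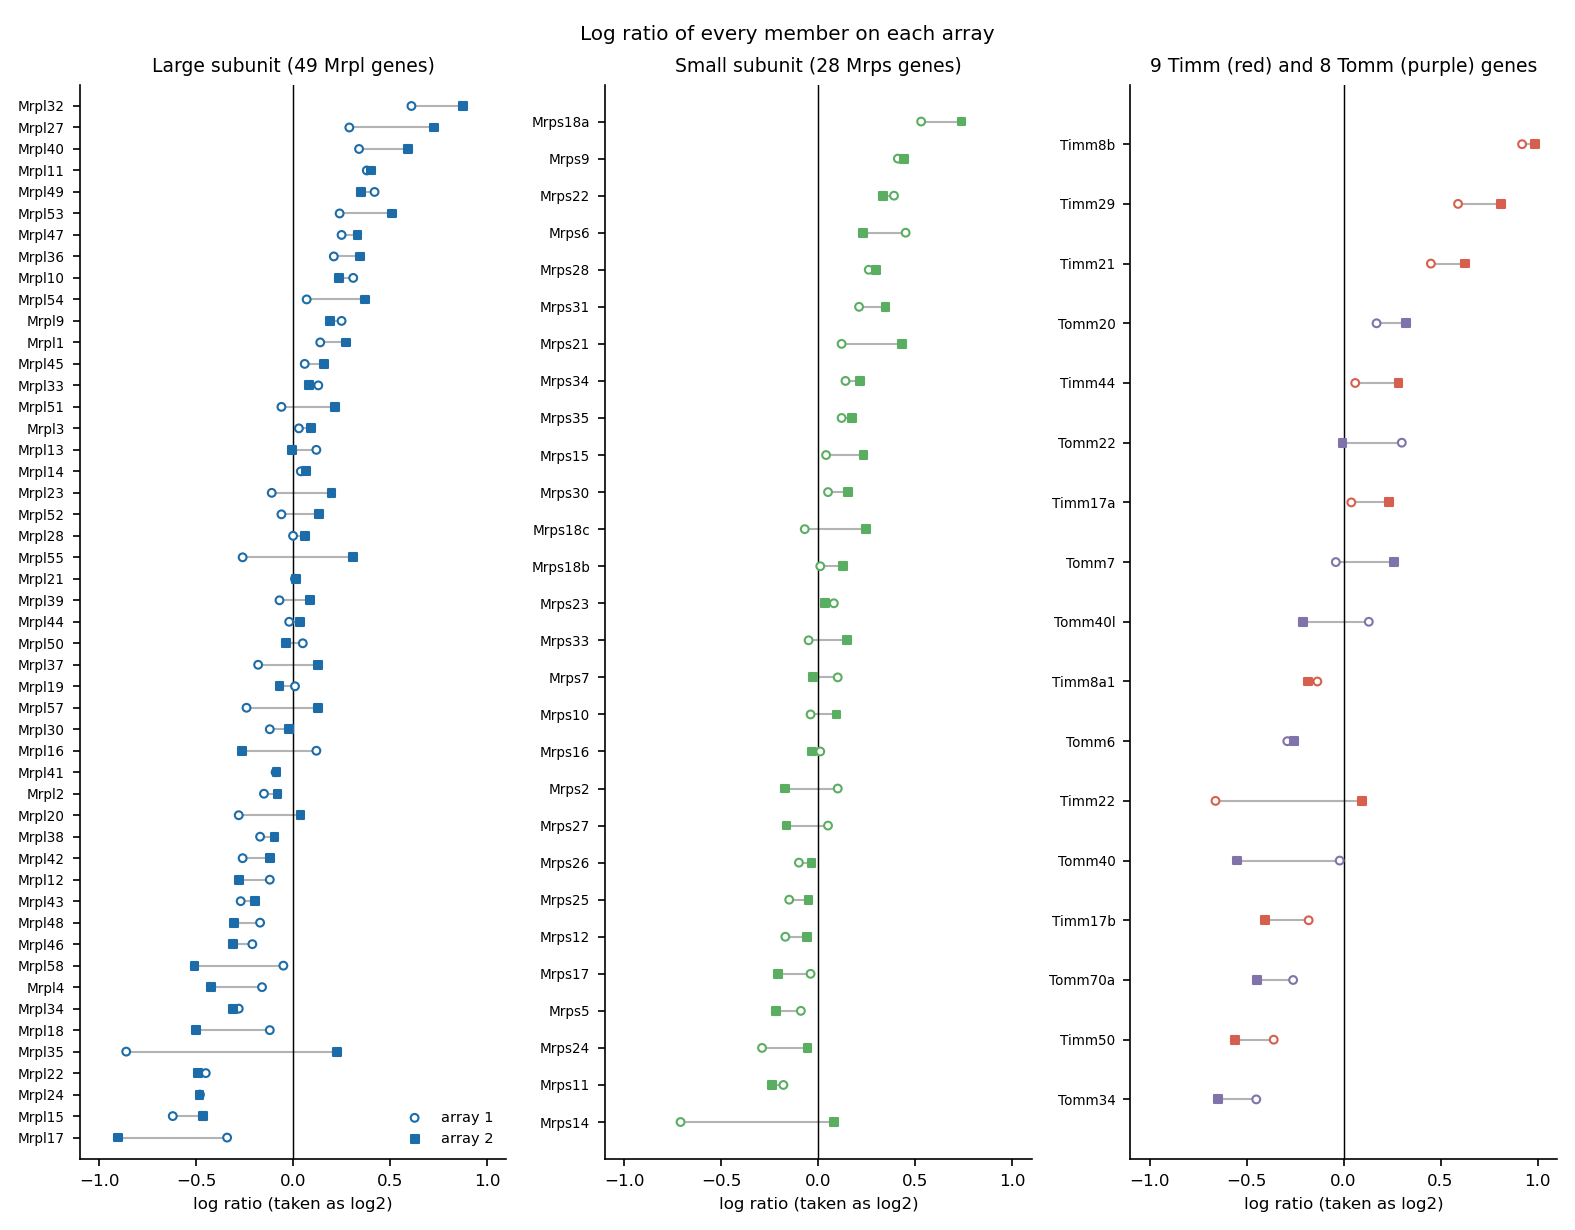
Each row is 1 gene, with its log ratio on array 1 (open circle) and array 2 (filled square) joined by a line; the panels show 49 Mrpl genes, 28 Mrps genes, and 9 Timm (red) with 8 Tomm genes (purple), each sorted by the mean. Most genes lie within 0.5 of 0, Timm8b is highest at 0.92 and 0.99, and Mrpl35, Mrps14 and Timm22 show the widest gaps across 0.

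The spread of the set was also given by its distances from 0. Of the 94 genes, 9 had a mean farther than 0.5 from 0 (9.57%, against 21.8% of all genes), and 0 were at least 1 log2 unit away on both arrays (2.27% of all genes were). The SD of the mean ratios across genes was 0.29, against 0.48 over all genes. The median SD between the arrays was 0.10, against 0.17. The set thus had smaller values and closer agreement of its arrays by these measures, which describe the genes and were not tested. No brightness of the spots was at hand, so its part was not tested. Across the 94 genes, which are not independent and share the same 2 arrays, Pearson's r between the arrays was 0.68, against 0.61 across all genes.

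**Figure D2:**
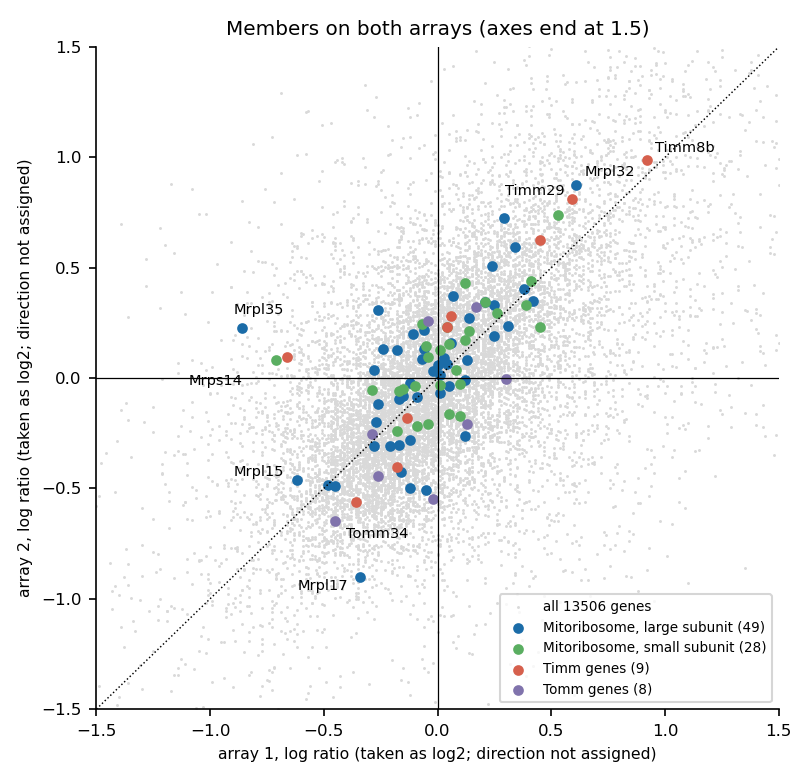
Log ratio on array 1 (horizontal) against array 2 (vertical) for all 13506 genes (grey) and the 94 genes by class (colours); the dotted line marks equal values, and both axes end at 1.5, beyond which some grey points lie. The coloured points lie within 0.99 of 0 on both axes, with Timm8b at the upper right and Mrpl17 lowest on array 2 at -0.90.

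Limma called 1 of the 94 genes at an adjusted p of 0.05 (1 of 94, where 2.90% of all genes were called). An unadjusted p under 0.05 was met by 15 of them, 9 positive and 6 negative, or 16.0%, against 27.5% of all genes. The called gene was Timm8b, on the positive side (2.12% of all genes were called positive). Timm8b codes for a small chaperone of the intermembrane space that escorts hydrophobic proteins between the outer and inner membranes. Its ratio was 0.92 on array 1 and 0.99 on array 2. Both arrays gave nearly the same value, and it was the highest of the 94 on each of them. The mean was 0.95 ± 0.05 (SD, n = 2), a 1.94-fold ratio if the base is 2. Its 95% interval in limma ran from 0.57 to 1.34 and its adjusted p was 0.0493. That p lay just under the threshold, and the call was kept in 1 of 8 alternative settings, after centring on the median, where limma's adjusted p was 0.0499. In the fit on probes 0 of the 97 probes of these genes were called (1.26% of all probes were), with Timm8b at a limma adjusted p of 0.0599. The adjusted p over the 8 settings ran from 0.0499 to 0.462.

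Since the nuclear genes of mitochondria are known for promoters that bind NRF1, the ETS factor GABP and YY1, 5 promoters are shown with the letters of these factors' core motifs. They were picked after the values were seen, from genes on either side of 0 whose window holds a match, and are not the 5 genes farthest from 0. Windows reach from 250 bases before an annotated transcript start to 50 after it (RefSeq, GRCm38.p6). Capitals mark every match, on either strand, to the NRF1 core motif (with its free middle letter), CCGGAAG (ETS and GABP) or AAGATGGC (YY1). No match to one motif overlapped a match to another in any of these genes' windows. Timm8b lies at chr9:50603651-50603950 (plus strand), Mrpl32 at chr13:14612988-14613287 (minus strand) and Mrps18a at chr17:46110754-46111053 (plus strand), and these are shown for the positive side. Mrpl17 at chr7:105811038-105811337 (minus strand) and Mrpl22 at chr11:58171414-58171713 (plus strand) are shown for the negative side.
Timm8b: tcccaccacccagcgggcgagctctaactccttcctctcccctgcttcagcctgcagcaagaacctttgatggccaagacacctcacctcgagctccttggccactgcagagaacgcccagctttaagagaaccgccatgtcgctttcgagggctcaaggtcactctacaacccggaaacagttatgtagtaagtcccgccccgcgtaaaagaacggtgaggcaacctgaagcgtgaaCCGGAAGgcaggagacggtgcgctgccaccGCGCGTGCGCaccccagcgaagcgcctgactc
Mrpl32: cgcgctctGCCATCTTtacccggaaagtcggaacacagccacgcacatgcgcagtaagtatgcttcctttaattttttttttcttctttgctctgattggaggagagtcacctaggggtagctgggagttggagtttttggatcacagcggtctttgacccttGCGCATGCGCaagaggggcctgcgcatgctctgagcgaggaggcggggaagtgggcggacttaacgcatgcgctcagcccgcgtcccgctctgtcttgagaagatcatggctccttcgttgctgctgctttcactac
Mrps18a: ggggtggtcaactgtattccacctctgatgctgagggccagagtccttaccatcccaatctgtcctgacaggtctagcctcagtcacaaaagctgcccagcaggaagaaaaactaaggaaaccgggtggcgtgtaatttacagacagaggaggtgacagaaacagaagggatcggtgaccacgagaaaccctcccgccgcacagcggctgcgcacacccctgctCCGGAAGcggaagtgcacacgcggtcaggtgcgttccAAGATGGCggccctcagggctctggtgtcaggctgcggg
Mrpl17: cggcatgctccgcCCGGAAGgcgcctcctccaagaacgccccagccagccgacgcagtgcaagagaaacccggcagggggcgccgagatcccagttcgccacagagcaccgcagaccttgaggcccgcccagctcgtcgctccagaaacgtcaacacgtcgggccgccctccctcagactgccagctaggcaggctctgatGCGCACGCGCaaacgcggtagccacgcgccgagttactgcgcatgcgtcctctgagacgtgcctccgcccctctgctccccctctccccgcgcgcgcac
Mrpl22: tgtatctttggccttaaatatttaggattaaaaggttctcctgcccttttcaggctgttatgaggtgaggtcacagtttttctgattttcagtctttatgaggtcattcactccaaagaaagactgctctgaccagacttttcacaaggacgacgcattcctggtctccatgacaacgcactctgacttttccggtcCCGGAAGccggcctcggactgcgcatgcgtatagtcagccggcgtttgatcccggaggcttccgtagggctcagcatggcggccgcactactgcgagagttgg
In Timm8b the ETS letters began 12 bases before the start, at position -12, and the NRF1 letters at 18 after it. In Mrpl32 the NRF1 letters began at -87 and the YY1 letters at -242. In Mrps18a the ETS letters began at -26 and the YY1 letters at 11. The negative Mrpl17 held NRF1 letters at -49 and ETS letters at -237, and Mrpl22 held ETS letters at -53. NRF1 and ETS letters thus stood in shown promoters of both sides, and YY1 letters in those of positive genes, in a choice of 5 that supports no comparison.

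RefSeq gave 90 promoter windows for 82 of the 94 genes. ETS letters were in 32 of the 90 windows (35.6%), against 8.86% of all 32851 windows and 14.5% of the 13674 windows of genes measured here. NRF1 letters were in 15 (16.7%), against 4.60% and 8.45%. YY1 letters were in 13 (14.4%), against 2.75% and 3.79%. By gene, 50 of 82 held at least 1 of these motifs. The shares were higher than the background, without a test, and a match is a description of letters and not of binding. The median ratios of genes were 0.05 with and 0.01 without NRF1 letters, 0.04 and 0.01 for ETS letters, and -0.06 and 0.02 for YY1 letters. The 31 genes with ETS letters ran from -0.62 to 0.95, with 12 positive and 11 negative on both arrays.

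Among the proteins of the large ribosomal subunit, both sides were equally filled. Of 49 genes, 17 lay above 0 on each array (34.7%, against 33.9% of all genes) and 17 below (34.7%, against 38.2%). The other 15 differed in sign or, for Mrpl28, were at 0 on array 1. The class median of 0.01 came from -0.06 on array 1 and 0.06 on array 2. Limma called 0 of 49, where 2.90% of all genes were called. An unadjusted p under 0.05 was met by 8 (16.3%, against 27.5% of all genes), 4 on each side. Mrpl32, whose cleavage by an inner membrane protease precedes ribosome assembly in yeast and mouse, had 0.61 and 0.88 on the arrays. It was the highest of the class, at 0.74 ± 0.19 (SD, n = 2; limma adjusted p = 0.0801). Mrpl11, the counterpart of a bacterial protein at the base of the stalk that meets elongation factors, had 0.38 and 0.40. Its arrays almost coincided, at 0.39 ± 0.02 (limma adjusted p = 0.178). Mrpl49, a protein without bacterial counterpart, had 0.42 and 0.35, or 0.38 ± 0.05. Mrpl27, whose bacterial counterpart reaches towards the peptidyl transferase centre, had 0.29 and 0.73, and Mrpl40 had 0.34 and 0.59. Both lay on the positive side on each array with limma adjusted p of 0.157 and 0.152, and both were picked out after their values were seen.

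On the negative side of the large subunit, Mrpl17, Mrpl15, Mrpl24 and Mrpl22 lay farthest from 0. Mrpl17 had -0.34 on array 1 and -0.90 on array 2, the lowest mean of all 94 genes at -0.62 ± 0.40 (SD, n = 2). Its limma interval ran from -1.12 to -0.12, with an adjusted p of 0.132. Mrpl24 had -0.48 on both arrays, and its SD of 0.0017 was the smallest of the set. Mrpl22 had -0.45 and -0.49, or -0.47 ± 0.03. These 3 genes are named after bacterial proteins around the exit of the nascent chain, as are Mrpl32 above, on the positive side, and Mrpl23, at -0.11 and 0.20. Mrpl15, another counterpart of a bacterial protein, had -0.62 and -0.46, or -0.54 ± 0.11. Limma adjusted p was 0.131 for Mrpl24, 0.137 for Mrpl22 and 0.116 for Mrpl15, so none of these genes passed. Mrpl12, which forms the stalk that recruits translation factors, had -0.12 and -0.28. Mrpl58, a release factor relative built into the ribosome, had -0.05 and -0.51, and both were negative on each array without passing. Mrpl12 and Mrpl58 were picked out for their roles after their values were seen.

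Small subunit genes were the most closely packed class. Of 28 genes, 13 lay above 0 on each array (46.4%, against 33.9% of all genes) and 7 below (25%, against 38.2%). The other 8 differed in sign. The class median of 0.05 came from 0.045 on array 1 and 0.11 on array 2, and the SD across genes was 0.21. Limma called 0 of 28, where 2.90% of all genes were called. An unadjusted p under 0.05 was met by 2 (7.14%, against 27.5% of all genes). The farthest was Mrps18a at 0.53 and 0.74, or 0.63 ± 0.15 (SD, n = 2; limma adjusted p = 0.0944). Despite its name its protein is known to sit in the large subunit, as is that of Mrps30. Its paralogues Mrps18b and Mrps18c had means of 0.07 and 0.09, and the differences within this family were not tested. Mrps9, the counterpart of a bacterial head protein, had 0.41 and 0.44, or 0.42 ± 0.02 (limma adjusted p = 0.158). Mrps22, mutated in human mitochondrial disease, had 0.39 and 0.33, and Mrps6 had 0.45 and 0.23. Mrps28 and Mrps31 had means of 0.28 ± 0.03 and 0.28 ± 0.10. All 6 were positive on both arrays. Mrps12, at the decoding centre and picked out for its role after its values were seen, had -0.17 and -0.06.

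Splitting the ribosome by this numbering gave similar centres and different widths. The 44 genes with bacterial numbering had a median of 0.02 and an SD across genes of 0.30, with means from -0.62 to 0.74. The 33 with higher numbers had a median of 0.03 and an SD of 0.20, with means from -0.28 to 0.47. An unadjusted p under 0.05 was met by 9 of the first group (20.5%) and 1 of the second (3.03%), against 27.5% of all genes. A mean beyond 0.5 from 0 was found in 5 of the first group (11.4%) and 0 of the second, against 21.8% of all genes. The difference in width was not tested.

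Translocase genes of the inner membrane were the most spread of the 4 classes, with means from -0.46 to 0.95 over 9 genes. Their SD across genes was 0.49, near the 0.48 over all genes. On each array 5 of the 9 lay above 0 (55.6%, against 33.9% of all genes) and 3 below (33.3%, against 38.2%). The remaining gene differed in sign. An unadjusted p under 0.05 was met by 4 of the 9 (44.4%, against 27.5% of all genes). Besides Timm8b, the positive side held Timm29 and Timm21. Timm29, a part of the animal carrier translocase built around Timm22, had 0.59 and 0.81, or 0.70 ± 0.16 (SD, n = 2; limma adjusted p = 0.0845). Timm21, a part of the presequence translocase that in human cells also handles early respiratory chain intermediates, had 0.45 and 0.63, or 0.54 ± 0.12 (limma adjusted p = 0.118). On the negative side was Timm50, the receptor of the presequence translocase, at -0.36 and -0.56, or -0.46 ± 0.14 (limma adjusted p = 0.150). Timm21 and Timm50, named for parts of the same translocase, thus lay on opposite sides on both arrays. The paralogous channel proteins Timm17a and Timm17b also differed in side. Timm17a had 0.04 and 0.23, and Timm17b had -0.18 and -0.40, neither past the threshold. Timm44, which tethers the import motor, had 0.06 and 0.28.

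Timm22, the channel of the carrier translocase, had -0.66 on array 1 and 0.10 on array 2. The arrays disagreed in sign, so its mean of -0.28 ± 0.53 (SD, n = 2) gives no side. Timm8a1, the mouse counterpart of the gene of human deafness-dystonia syndrome and a paralogue of Timm8b, had -0.14 and -0.18, or -0.16 ± 0.03. Its 2 probes differed, with means of -0.39 and 0.07. Timm8b, measured with 1 probe, was therefore not matched by its paralogue, and the difference between them was not tested. Other small chaperones of this family are not analysed here.

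Of 8 outer membrane genes, 4 were negative on both arrays (50%, against 38.2% of all genes) and 1 was positive (12.5%, against 33.9%). The other 3 were mixed, and the class median was -0.16. That median was -0.03 on array 1 and -0.23 on array 2. Over genes with 1 probe, which leaves out Tomm40, it was -0.04. Limma called 0 of 8, where 2.90% of all genes were called. An unadjusted p under 0.05 was met by 1 (12.5%, against 27.5% of all genes). The farthest was Tomm34, a cytosolic cochaperone that binds precursors and is not part of the channel, at -0.45 and -0.65, or -0.55 ± 0.14 (SD, n = 2; limma adjusted p = 0.116). The receptor Tomm70a had -0.26 and -0.45, or -0.35 ± 0.13. The receptor Tomm20 had 0.17 and 0.32, and was the 1 gene positive on both arrays. The remaining receptor, Tomm22, had 0.30 and -0.01, so the receptors did not share a side. The channel gene Tomm40 had -0.02 and -0.55 after averaging 2 probes, whose means were -0.26 and -0.31. The first probe had -0.11 and -0.41, and the second had 0.07 and -0.68. The negative sign of Tomm40 on array 1 thus rests on the averaging. Its paralogue Tomm40l had 0.13 and -0.21. The small subunits Tomm6 and Tomm7 had -0.29 and -0.26 for Tomm6 and -0.04 and 0.26 for Tomm7.

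Some genes differed widely between the arrays. The widest gap was that of Mrpl35, with -0.86 on array 1 and 0.22 on array 2. Mrps14 followed at -0.71 and 0.08, then Timm22 as above. Mrpl55 had -0.26 and 0.31. Tomm40 and Mrpl17 completed the 6 widest gaps. Unlike the others they were negative on both arrays, Tomm40 only after its 2 probes were averaged. Mrps30 had 0.05 and 0.15 after averaging 2 probes that disagreed in sign, with means of 0.40 and -0.20. Array 2 lay farther from 0 than array 1 in 65 of 94 genes (69.1%, against 57.0% of all genes). Many ribosomal protein genes have processed copies or paralogues in the genome, and whether a probe reads more than 1 of them was not tested.

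Genomic neighbours of these genes were set beside them. RefSeq places a measured protein-coding gene within 1000 bases of 45 of the 94 genes, in 54 pairs. In 21 of the 54 pairs both means had the same sign. Pearson's r across the pairs was -0.15, a description only, since all pairs share the arrays and some share a gene. No share for other neighbouring genes was computed. Timm8b lies beside Sdhd, a subunit of succinate dehydrogenase, which had -0.25 and -0.32 on the arrays. Its other neighbour, Nkapd1, had -0.09 and -0.21, so both neighbours were negative on each array where Timm8b was positive. Psma2, a proteasome subunit beside Mrpl32, had 0.15 and -0.40. A single pair joined 2 ribosomal genes, Mrps11 at -0.18 and -0.24 and Mrpl46 at -0.21 and -0.31. Limma called 2 neighbours in the 54 pairs, where 2.90% of all genes were called. They were Helq beside Mrps18c at 1.52 ± 0.04 (SD, n = 2) and Gcfc2 beside Mrpl19 at 1.03 ± 0.02. Mrps18c itself had a mean of 0.09 and Mrpl19 one of -0.03.

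The proteins that work with these machines were followed in 8 lists, and limma called 0 of their 91 measured genes. Of those, 27 had an unadjusted p under 0.05 (29.7%, against 27.5% of all genes). Translation factors (12 of 14 measured) had a median of 0.05 (array 1 alone 0.035, array 2 alone -0.02), and 5 had an unadjusted p under 0.05. Mtrf1, a release factor family member, had 0.59 and 0.75. Tsfm, the exchange factor of the elongation factor Tufm, had -0.54 and -0.81, and Lrpprc, which stabilises mitochondrial mRNAs, had -0.57 and -0.58. Translation factors lay on both sides without a call, with limma adjusted p of 0.0871, 0.0907 and 0.103 for these genes. Aminoacyl-tRNA synthetases (14 of 19) had a median of 0.03, with Iars2 at 0.61 ± 0.04 and Vars2 at -0.64 ± 0.17 (SD, n = 2 each). Lars2 had -0.53 ± 0.03. Ribosome assembly factors (17 of 17) had a median of 0.04. The rRNA methyltransferase Mrm2 had -0.63 and -0.43, and Malsu1, which binds the maturing large subunit, had 0.38 and 0.94. Mterf3, which binds mitochondrial nucleic acid, had 0.36 and 0.43. Of the 5 ribosomal proteins with other names 3 were measured, Gadd45gip1 at 0.28 and 0.55, Chchd1 at 0.10 and 0.55, and Ptcd3 at -0.11 and -0.05.

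Partners of the translocases lay on both sides. Of 22 genes for import, sorting and folding 16 were measured, with a median of -0.12. On both arrays 8 were negative (50%, against 38.2% of all genes) and 3 positive (18.8%, against 33.9%). The presequence peptidases Mipep and Pmpca had -0.56 and -0.73 for Mipep and -0.37 and -0.72 for Pmpca. Pmpcb, the partner subunit of Pmpca, had 0.02 and -0.02, so the 2 subunits did not share a side. Samm50, which inserts barrel proteins into the outer membrane, had -0.53 and -0.46. Dnajc15, a cochaperone of the import motor, had 0.54 and 0.95, or 0.74 ± 0.29 (SD, n = 2; limma adjusted p = 0.0896). None of the 16 passed, where 2.90% of all genes did. An unadjusted p under 0.05 was met by 8 (50%, against 27.5% of all genes). Mitochondrial proteases (8 of 9, median 0.04) and genes of mitochondrial DNA and transcription (10 of 10, median 0.09) each had 1 gene with an unadjusted p under 0.05. These were Oma1, a stress-activated inner membrane protease, at 0.41 ± 0.14 and Polrmt, the mitochondrial RNA polymerase, at -0.54 ± 0.27. The median of the DNA and transcription genes was 0.03 on array 1 and -0.03 on array 2. Of these 10 genes, 5 were mixed in sign (50%, against 27.8% of all genes). The proteases Lonp1 and Spg7 had -0.31 ± 0.03 and 0.31 ± 0.04, and Tfam, which packages mitochondrial DNA, had 0.16 ± 0.02. Polg2 and Polg, subunits of the mitochondrial DNA polymerase, had 0.43 ± 0.33 and -0.20 ± 0.06.

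Regulators of mitochondrial biogenesis (11 of 11) had a median of -0.20 and held the highest value of these lists. That median was 0.09 on array 1 and -0.39 on array 2, so its sign rests on the array. On both arrays 3 were positive (27.3%, against 33.9% of all genes) and 5 negative (45.5%, against 38.2%). Ppargc1a, the coactivator PGC-1alpha, had 0.91 on array 1 and 1.76 on array 2. Both arrays were positive, at 1.33 ± 0.60 (SD, n = 2), and limma's fit on genes gave an adjusted p of 0.0599. Its 2 probes had means of 1.89 and 0.78, and in limma's fit on probes the first was called (adjusted p = 0.0488) and the second was not (adjusted p = 0.156). Its relatives Ppargc1b and Pprc1 had -0.39 and -0.53 for Ppargc1b and -0.25 and -0.51 for Pprc1. Gabpa, the DNA-binding part of GABP, had -0.55 and -0.56. The other GABP genes were mixed in sign, Gabpb1 at 0.13 and -0.10 and Gabpb2 at 0.34 and -0.75. Nrf1 was also mixed, at 0.09 and -0.21, and Yy1 was positive at 0.22 and 0.28. Of this coactivator family, Ppargc1a thus lay on the positive side and Ppargc1b and Pprc1 on the negative side of both arrays. The differences between them were not tested.

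**Figure D3:**
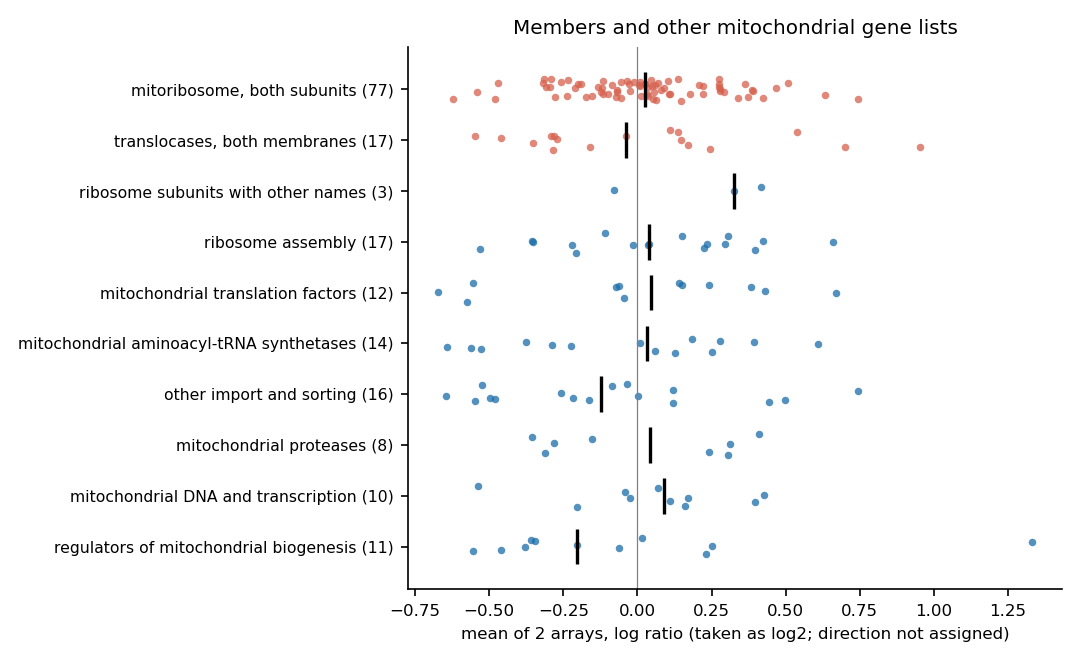
Mean log ratio of the 2 arrays (horizontal) for each gene, with the 77 ribosomal and 17 translocase genes in red, 8 other mitochondrial lists in blue, and the median of each row as a black bar; points are spread vertically only for legibility. Medians lie between -0.20 and 0.32, and Ppargc1a stands at the right at 1.33.

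The closest gene families by function were set beside the 94 genes. On both arrays 38.2% of all genes were negative and 33.9% positive. Of 55 genes for cytosolic ribosomal proteins, 46 were negative (83.6%) and 5 positive (9.09%) on both arrays, with a median of -0.49. Of 81 genes for the respiratory chain and ATP synthase, 44 were negative (54.3%) and 19 positive (23.5%), with a median of -0.17. The 94 genes, with 31 negative and 36 positive and a median of 0.02, lay nearer to the median of all genes than either family. These families were selected by symbol after the data had been seen, and the differences between the sets were not tested.

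**Figure D4:**
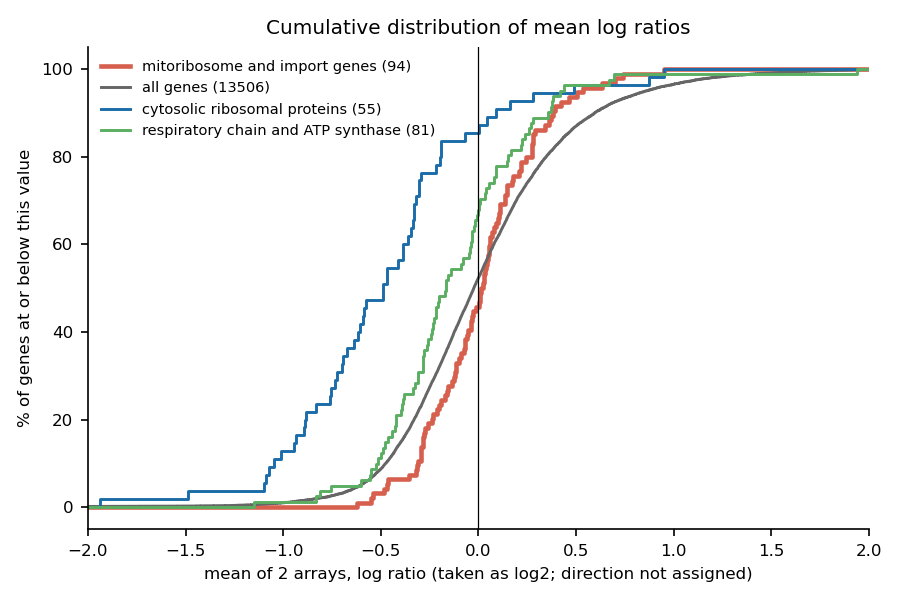
Percent of genes (vertical) at or below each mean log ratio (horizontal) for the 94 genes (red), all 13506 genes (grey), 55 cytosolic ribosomal protein genes (blue) and 81 respiratory chain and ATP synthase genes (green). The red curve crosses 50% near 0.02 and is steeper than the grey one, whereas the blue curve crosses near -0.49.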

How the data were processed

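Values came from 1 table of 2 two-colour arrays. Per the labels, each array paired a Cy3-labelled liver metastasis with a Cy5-labelled primary tumour after amino-allyl aRNA amplification. The deposited values are log2 ratios by assumption, and their base, numerator channel, background correction, spot filter and normalization are unstated here. Both arrays gave a value for 18837 of 23473 probes. The number of arrays limits the precision.

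Probe symbols came from the platform annotation, with 1 symbol for 16631 probes and none or more than 1 for the other 6842. Symbols were updated through RefSeq (GRCm38.p6), 3947 by a unique synonym. Probes of a gene were averaged, giving 13506 genes. Limma 3.58.1 (R 4.3.3) tested every gene's ratio against 0 through lmFit and eBayes, with Benjamini-Hochberg adjustment over all genes, a threshold of 0.05, 1 residual degree of freedom and a prior of 4.06. The script was tested on simulated data. Figures used matplotlib 3.10.9.

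The genes and lists were chosen with earlier results of these data known. Named genes were those past the threshold, up to 6 per class by the value on the weaker array, the 6 widest gaps between arrays, genes with several probes and up to 3 per other list; all other named genes were picked after their values were seen. Protein sequences were not used here. Alternatives were a fit on probes, centring, scaling, quantile normalization, a minimum fold of 1.2, no moderation, a robust prior, genes with 1 probe and leaving out each array.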

Additional observations from a re-analysis of the deposited data

How the results depend on the processing

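The count of called genes among the 94 was 1, and it stayed 1 after centring. It was 0 in the other 7 settings: the limma fit on probes, scaling to equal spread, quantile normalization, a minimum fold of 1.2, no moderation, a robust prior, and genes with 1 probe. Over all genes limma called 391, against 358 after centring, 267 with the robust prior, 255 with 1 probe, 238 on probes, 108 with the minimum fold, 51 after scaling, 4 after quantile normalization and 0 without moderation. Timm8b had a limma adjusted p of 0.0599 on probes, 0.0634 after scaling, 0.0786 after quantile normalization, 0.102 with the minimum fold, 0.462 without moderation, 0.0510 with the robust prior and 0.0532 with 1 probe. The fit on probes called 1 gene of the regulators of biogenesis, Ppargc1a, where the fit on genes called 0. It also gave the second probes of Mrps30 and Timm8a1 the opposite sign, at -0.20 and 0.068.

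Leaving out each array in turn gave a median of the 94 genes between -0.01 and 0.07, and class medians between -0.06 and 0.06 for the large subunit, 0.045 and 0.11 for the small subunit, 0.04 and 0.23 for the inner membrane and -0.23 and -0.03 for the outer membrane. The sign of the first 2 of these thus rests on the array chosen. Counting Mrps18a and Mrps30 with the large subunit, chosen after seeing the data, gave medians of 0.01 and 0.04. The counts of genes positive and negative on both arrays ranged from 35 to 39 and from 29 to 32. Each log ratio already pairs the 2 tissues of its array, so the test against 0 is the paired analysis and no separate replicate block was fitted.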
